A study of Mus musculus with 18 samples.

Results

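Macrophages lacking Irg1, the gene now named Acod1, were compared with wild type macrophages after both had been stimulated with lipopolysaccharide (LPS) and interferon gamma (IFNg). The comparison covers 6 of the 18 RNA-seq libraries of the series: 3 labelled Irg1-/- and 3 labelled WT, taken from a count table of their own. All 24052 genes of that table were considered, and 9491 had enough counts to be tested. The other 12 libraries belong to a separate experiment with dimethyl itaconate, a cell-permeable ester of itaconate, and are used only for one side-by-side comparison near the end.

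The cells of both groups were bone marrow-derived macrophages of C57BL/6 background, grown from bone marrow with macrophage colony-stimulating factor (M-CSF) at 20 ng/ml. Both groups then received LPS from E. coli 0111:B4 at 100 ng/ml together with recombinant mouse IFNg at 50 ng/ml for 24 h, so no unstimulated knockout or wild type library enters the comparison. The treatment text attached to all 6 libraries names only the knockout cells, and the genotype field separates the groups. The labels do not give the age or number of animals, which part of Irg1 was deleted, or whether libraries of one group came from separate animals or cultures. The p-values therefore measure the spread between these libraries, which may be partly technical. Wild type macrophages were the only control, and whether they came from littermates is not stated.

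Acod1 encodes the mitochondrial enzyme that makes itaconate from cis-aconitate, an intermediate of the tricarboxylic acid cycle. It is among the most strongly induced genes of macrophages given LPS, and itaconate accumulates in such cells. Itaconate is known to inhibit succinate dehydrogenase and, together with its electrophilic derivatives, to alkylate KEAP1, which releases the transcription factor NRF2 and thereby genes for glutathione synthesis, quinone reduction and iron storage. Electrophilic itaconate derivatives are also known to restrain a secondary wave of inflammatory genes that depends on IkB-zeta, the product of Nfkbiz.

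The libraries held 3088644 to 5491684 counts each, made from the 3' ends of polyadenylated RNA. Expression levels of single genes below are CPM, counts scaled to each library's total in the tested genes after TMM scaling. The summed marker levels, and the Car2 values given with them, are instead scaled to each library's total over all genes, without TMM. On that second scale 3 counts correspond to 0.546 to 0.971 CPM. The correlation of log2 CPM was 0.959 to 0.966 between libraries of one group and 0.949 to 0.976 between groups, and no library stood apart. The summed level of 22 macrophage markers was 9665 to 11759 CPM in the knockout and 10542 to 12090 CPM in the wild type (two-sided exact permutation test, p = 0.4, the smallest p that 3 against 3 allows being 0.1). Neutrophil markers summed to 11.3 to 15.1 CPM in the knockout and 14.1 to 22.8 CPM in the wild type. Of these, Mpo, Prtn3, Ctsg and Retnlg were at 0 in all 6 libraries. S100a8 (15 to 34 counts), S100a9 (13 to 28 counts) and Mmp8 (9 to 29 counts) were counted in all 6. T and NK cell markers summed to at most 4.21 CPM in any library and B cell markers to at most 2.59 CPM. Dendritic cell markers summed to 20.5 to 31.4 CPM against 29.3 to 39.2 CPM, and stromal markers to 19.1 to 27.9 CPM against 22.2 to 35.9 CPM. Of 9 erythroid markers, 8 were at 0 in all libraries, every globin among them, and Car2, the remaining one, stood at 3.85 to 7.10 CPM against 8.31 to 9.07 CPM. The part of other cell types in the results was not tested. In bulk RNA, fewer cells of one type and less RNA per cell cannot be told apart.

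Acod1 (gene ID 16365, chr14:103047012-103056573, mm10) stood at 28.5, 14.9 and 31.5 CPM in the 3 knockout libraries and at 4142, 4677 and 4237 CPM in the 3 wild type libraries. The groups lay far apart, and the libraries' genotype labels matched the level of the targeted gene in all 6. The mean was 24.9 ± 8.86 CPM (SD, n = 3) in the knockout and 4352 ± 285 CPM (SD, n = 3) in the wild type, a log2 fold change of -7.43 (SE 0.32, edgeR quasi-likelihood test with Benjamini-Hochberg adjustment, adjusted p = 4.79e-07). The remaining counts, 149, 56 and 182 in the knockout libraries, come from 3' tags. A tag outside the deleted part would be counted in a knockout too, and which part was deleted is not stated in the labels, so these counts do not measure functional transcript.

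Without use of the replicate numbers, 6 genes were called at an adjusted p under 0.05. Higher in the knockout was 1 gene (0.0105% of the 9491 tested), Tgfbi, and lower were 5 genes (0.0527%), among them Acod1, the metallothionein Mt2 and the X-chromosomal Erdr1 and G530011O06Rik. At an unadjusted p under 0.05, 319 genes were higher and 346 were lower. Same-numbered knockout and wild type libraries deviated together from their group means, and were taken as pairs. With the replicate number as a block, so that each knockout library is set against its same-numbered wild type library, 275 genes were higher (2.9% of those tested) and 319 were lower (3.36%). All 6 genes called without the block were among them, and the median log2 fold change over all genes was 0.01 in both fits. Of the calls with the block, 73 higher and 109 lower genes were also called in each of 7 other fits with the block, in which the scaling, the filter, the tool or the pairs of libraries differed, where those fits gave an adjusted p. These genes are called the stable ones below. With the block the fit has 2 residual degrees of freedom per gene and borrows the rest of its estimate of spread from other genes.

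**Figure D1:**
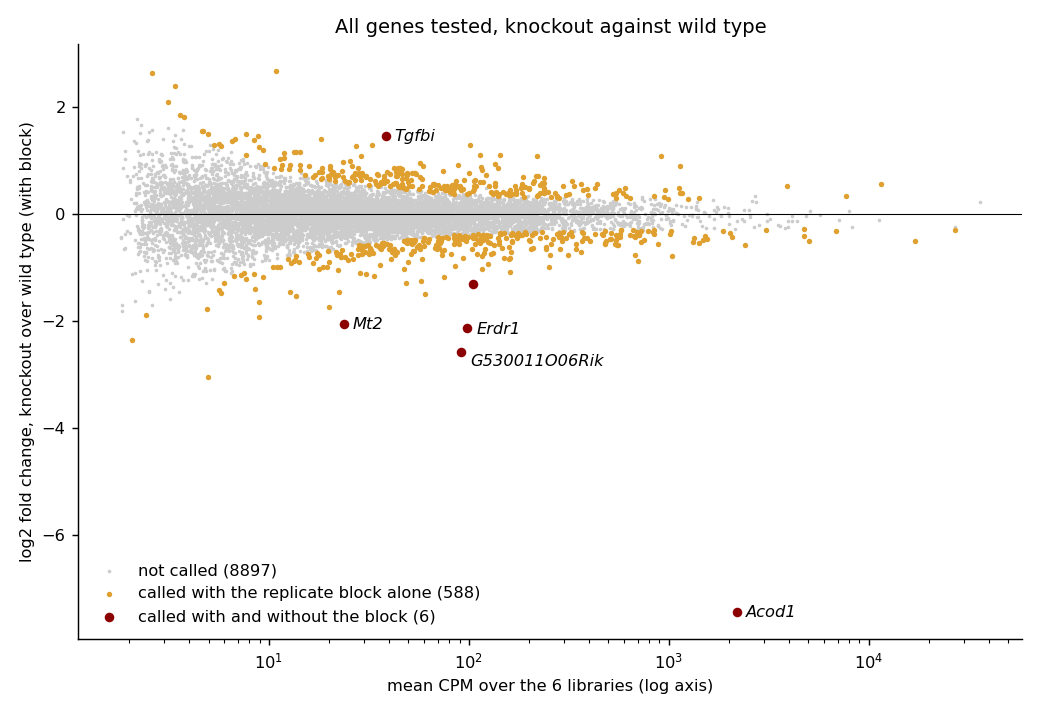
Log2 fold change of knockout over wild type, from the fit with the replicate block, against the mean CPM over the 6 libraries (log axis), 1 point per tested gene. Of the 6 genes called in both fits, 5 are labelled; Acod1 lies at -7.43, below every other gene, and the 588 genes called with the block alone lie on both sides of 0.

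The metallothioneins, small cysteine-rich proteins that bind zinc and copper, were lower in the knockout. Mt2 stood at 11.6, 7.96 and 8.31 CPM in the knockout and 41.2, 31.3 and 41.6 CPM in the wild type. Every knockout library was below every wild type library, with a log2 fold change of -2.02 (SE 0.24, edgeR adjusted p = 0.00801, with the block adjusted p = 7.98e-10). Without the block this call was lost on leaving out knockout replicate 3 (adjusted p = 0.0851) or wild type replicate 3 (adjusted p = 0.0539). Mt1, its neighbour on chromosome 8, stood at 23.7, 43.3 and 30.3 CPM in the knockout and 86.7, 95.9 and 84.1 CPM in the wild type. The groups again did not overlap, but Mt1 passed only with the block (log2 fold change -1.49, SE 0.15, adjusted p = 7e-10, against 0.0535 without it). Of the 10 other tested genes of the list, all zinc transporters or related genes, Slc39a10, a zinc importer, was called with the block (log2 0.69, adjusted p = 0.0254), and it lost that call in 4 of the 7 other fits.

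The promoters of both metallothionein genes are shown because the genes lie next to each other and moved together. They are RefSeq sequences of GRCm38.p6 (the build of mm10), from 250 bases before to 50 bases after a transcript start, and capitals mark matches of TGCACNC or TGCGCNC, the core of the metal response element bound by MTF1, on either strand. The Mt2 sequence is chr8:94172368-94172667 (+) and the Mt1 sequence chr8:94178839-94179138 (+).
Mt2: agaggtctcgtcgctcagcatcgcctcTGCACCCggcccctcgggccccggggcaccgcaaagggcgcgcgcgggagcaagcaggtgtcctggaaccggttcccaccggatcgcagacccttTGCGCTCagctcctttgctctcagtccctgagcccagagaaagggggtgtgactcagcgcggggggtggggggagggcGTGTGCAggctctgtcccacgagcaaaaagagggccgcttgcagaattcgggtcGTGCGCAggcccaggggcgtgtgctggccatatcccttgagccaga
Mt1: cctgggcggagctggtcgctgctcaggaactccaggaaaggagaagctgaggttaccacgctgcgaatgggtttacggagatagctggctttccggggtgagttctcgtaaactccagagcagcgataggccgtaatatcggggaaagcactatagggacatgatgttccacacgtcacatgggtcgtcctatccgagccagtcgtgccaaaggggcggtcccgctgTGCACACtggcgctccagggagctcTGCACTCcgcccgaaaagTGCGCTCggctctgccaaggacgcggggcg
The Mt2 window held 4 matches and the Mt1 window 3, while 25.7% of all 32841 promoter windows of this length held at least 1, as did 40.2% of the 7722 tested genes with a window. The 2 letter patterns cannot match at the same place on one strand. A match describes the sequence and was not tested as a binding site.

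Tgfbi, an extracellular matrix protein induced by TGF-beta, was higher in the knockout, with 62.2, 48.8 and 58.2 CPM in the knockout and 19.9, 23.7 and 17.9 CPM in the wild type. Its log2 fold change was 1.47 (SE 0.21, adjusted p = 0.03, with the block 3.33e-08), and its groups did not overlap. Without the block, leaving out any library other than knockout replicate 2 ended the call (adjusted p 0.0878 to 0.218).

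Erdr1 and G530011O06Rik lie close together near the end of the X chromosome (chrX:170010526-170018797 and chrX:169975043-169978917, mm10). Erdr1 stood at 34, 37.4 and 38.3 CPM in the knockout and 153, 163 and 164 CPM in the wild type (log2 fold change -2.13, SE 0.18, edgeR adjusted p = 0.000437). G530011O06Rik stood at 29.4, 36.4 and 16.6 CPM against 165, 161 and 141 CPM (log2 fold change -2.51, SE 0.27, adjusted p = 0.00322). Both kept their calls without any one library. This end of the chromosome is shared with the Y chromosome and repetitive, so how reads were assigned there is uncertain. Another transcript of the X chromosome, 3830403N18Rik, was the gene with the most negative fold change among those called with the block alone (1.72, 1.06 and 0.346 CPM against 6.31, 13.7 and 6.64 CPM, log2 -3.04, adjusted p = 5.46e-05). Its knockout counts were 9, 4 and 2, near the limit of 3 counts, so the size of its fold change cannot be read. The Y-linked Ddx3y, Eif2s3y, Kdm5d and Uty were counted in all 6 libraries, and 2 of these 4 (50%, against 3.36% of all genes) were lower with the block (Ddx3y, log2 -0.38, adjusted p = 0.0175, and Eif2s3y, log2 -0.67, adjusted p = 0.00478). Neither Ddx3y nor Eif2s3y kept its call in all 7 other fits. Kdm5d and Uty were not called. Without the block 2 of the 4 had a fold change below 0, and the highest log2 fold change of the 4 was 0.26.

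Of 49 listed NRF2 target genes 41 were tested, and 17 of them (41.5%) were lower with the block, against 3.36% of all genes. In the same fit 0 were higher by edgeR, by DESeq2 and by limma-voom, with 2 higher at an unadjusted p under 0.05. The median log2 fold change of the tested members was -0.34 without the block and -0.36 with it, against 0.01 over all genes. Without the block 0 members were called by edgeR or limma-voom and 1 by DESeq2, with 12 lower and 0 higher at an unadjusted p under 0.05. Over the 7 other fits with the block, 11 to 20 members were lower and 0 or 1 higher.

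The lower members covered several arms of the NRF2 programme. Slc7a11, which imports cystine for glutathione synthesis, stood at 45.4, 15.7 and 26 CPM in the knockout and 89.1, 59.1 and 57.3 CPM in the wild type. Each knockout library was below all wild type libraries, and the log2 fold change with the block was -1.28 (SE 0.16, adjusted p = 2.06e-07, against 0.389 without). Gclc, which catalyses the first step of glutathione synthesis, stood at 113, 126 and 99.7 CPM against 260, 189 and 163 CPM. Its groups did not overlap either (log2 -0.83, SE 0.12, adjusted p = 1.94e-06 with the block). Its partner subunit Gclm stood at 431, 476 and 438 CPM against 678, 685 and 638 CPM, again without overlap (log2 -0.57, adjusted p = 3.39e-05 with the block).

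Srxn1, the sulfiredoxin that repairs overoxidised peroxiredoxins, stood at 79.4, 80.1 and 97.5 CPM against 150, 125 and 167 CPM (log2 -0.78, SE 0.12, adjusted p = 7.42e-06 with the block). The groups did not overlap. Ptgr1, a reductase of prostaglandins and enals, stood at 59, 75.6 and 124 CPM against 125, 122 and 244 CPM. Its groups overlapped, since both libraries numbered 3 were high, yet it was lower in 3 of 3 pairs (log2 -0.93, SE 0.12, adjusted p = 2.56e-07). Procr, the endothelial protein C receptor, stood at 426, 477 and 583 CPM against 835, 838 and 1039.9 CPM (log2 -0.87, SE 0.09, adjusted p = 3.6e-09). These 6 genes and Sqstm1, Esd, Akr1a1, Taldo1 and Ftl1 (log2 -0.57 to -0.40 with the block) are the 11 stable members of the list.

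The other 6 called members were less stable. Nqo1, the quinone reductase often used as an NRF2 marker, had 5.92, 10.3 and 6.23 CPM against 11.6, 13.7 and 17.9 CPM (log2 -0.98, adjusted p = 0.0245 with the block). It was not called without pair 3 (adjusted p = 0.466). Abcc1, Cat, Pgd, Blvrb and Fth1 (log2 -0.44 to -0.28) were each lost in 3 or more of the other fits, in each case also without pair 2. Ftl1 and Fth1, the ferritin chains, have many processed copies in the genome, and how their reads were counted is uncertain.

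Other classical targets were not called. Hmox1, the haem oxygenase, stood at 242, 303 and 216 CPM in the knockout and 159, 236 and 224 CPM in the wild type. The groups overlapped, and it was not called with the block (log2 0.30, SE 0.11, adjusted p = 0.101), although it was without pair 3 (log2 0.49, adjusted p = 0.0281). Txnrd1, the thioredoxin reductase, had a log2 fold change of -0.17 (adjusted p = 0.436 with the block), and Prdx1, a peroxiredoxin, one of -0.23 (adjusted p = 0.115), called in 3 of the 7 other fits. Nfe2l2, which encodes NRF2 itself, had 324, 361 and 357 CPM against 318, 298 and 271 CPM (log2 0.24, adjusted p = 0.172 with the block). Its groups did not overlap, and it was called in 1 of the other fits, that without pair 1.

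**Figure D2:**
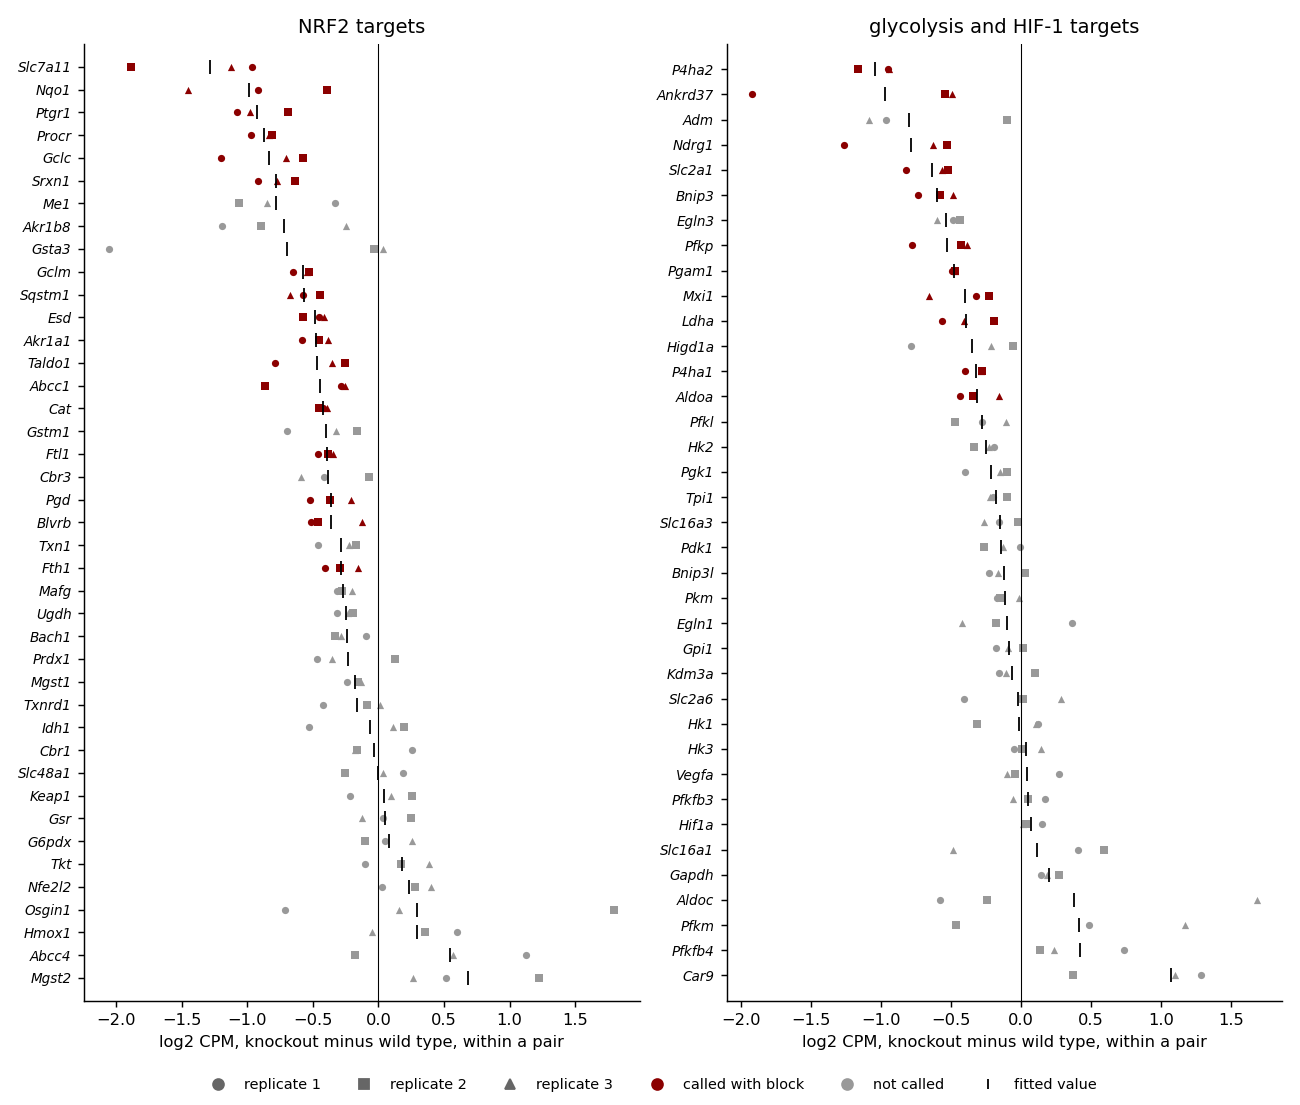
Difference in log2 CPM, knockout minus wild type, within each same-numbered pair of libraries (horizontal axis; 1 marker shape per replicate number) for the 41 tested NRF2 targets and the 37 tested glycolysis and HIF-1 target genes. Dark red genes were called with the replicate block, and all 17 and all 11 of these have their 3 markers left of 0; black ticks are the fitted values.

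Promoters of 3 of the stable NRF2 members show how differently placed the matching letters are. Capitals mark TGACNNNGC or TGAGNNNGC, the core of the antioxidant response element, on either strand, in RefSeq windows of GRCm38.p6 cut as above: Srxn1 at chr2:152105274-152105573 (+), Procr at chr2:155750967-155751266 (+) and Gclm at chr3:122245307-122245606 (+).
Srxn1: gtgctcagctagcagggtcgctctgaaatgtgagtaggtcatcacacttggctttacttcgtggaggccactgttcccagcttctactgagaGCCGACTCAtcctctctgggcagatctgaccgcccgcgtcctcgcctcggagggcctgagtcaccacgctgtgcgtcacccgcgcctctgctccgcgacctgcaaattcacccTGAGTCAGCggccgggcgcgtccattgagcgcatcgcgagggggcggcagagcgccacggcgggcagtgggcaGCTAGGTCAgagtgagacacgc
Procr: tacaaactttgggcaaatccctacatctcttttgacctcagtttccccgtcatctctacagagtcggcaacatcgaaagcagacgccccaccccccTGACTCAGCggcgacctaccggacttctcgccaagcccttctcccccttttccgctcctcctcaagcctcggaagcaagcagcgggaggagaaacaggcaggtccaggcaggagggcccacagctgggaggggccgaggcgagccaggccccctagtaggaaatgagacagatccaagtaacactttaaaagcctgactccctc
Gclm: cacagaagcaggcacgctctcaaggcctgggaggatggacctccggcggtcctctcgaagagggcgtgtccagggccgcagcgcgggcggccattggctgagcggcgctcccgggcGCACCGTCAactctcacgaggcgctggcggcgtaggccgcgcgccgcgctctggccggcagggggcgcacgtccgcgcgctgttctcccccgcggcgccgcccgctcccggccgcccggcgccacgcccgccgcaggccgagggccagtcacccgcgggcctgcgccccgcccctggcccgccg
Of the 17 lower members, 15 had a window in the table and 7 of these (46.7%) held at least 1 match, compared with 2777 of 7722 tested genes with a window (36%) and 27.8% of all windows. The 2 letter patterns cannot match at the same place on one strand, and the Srxn1 window held 3 matches.

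Of 37 tested genes of glycolysis and of the hypoxia factor HIF-1, 11 (29.7%) were lower with the block, against 3.36% of all genes. With the block 0 were higher by edgeR, DESeq2 and limma-voom, with 1 higher at an unadjusted p under 0.05. The median log2 fold change of the list was -0.16 without the block and -0.15 with it, against 0.01 over all genes. Without the block 0 were called by any of the 3 tools, with 7 lower and 1 higher at an unadjusted p under 0.05. Slc2a1, the glucose transporter GLUT1, stood at 157, 146 and 179 CPM in the knockout and 277, 209 and 266 CPM in the wild type. The groups did not overlap (log2 -0.64, SE 0.11, adjusted p = 4.06e-05 with the block). Bnip3, which targets mitochondria for removal, stood at 179, 232 and 169 CPM against 297, 347 and 237 CPM (log2 -0.60, adjusted p = 5.78e-05), its lowest wild type library lying just above its highest knockout library. The stable members were these genes together with P4ha2, a collagen prolyl hydroxylase (log2 -1.05), Pfkp, a phosphofructokinase (-0.53), and Pgam1, a phosphoglycerate mutase (-0.48). Ankrd37, Ndrg1, Mxi1, Ldha, P4ha1 and Aldoa were called with the block (log2 -0.98 to -0.31) but not in all other fits: Ldha was lost without pair 3 alone (adjusted p = 0.118), and Ankrd37 in DESeq2 and without pair 1 (adjusted p = 0.196). Over the 7 fits 6 to 11 members were lower. Hif1a itself had a log2 fold change of 0.07 (SE 0.10, adjusted p = 0.772 with the block).

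**Figure D3:**
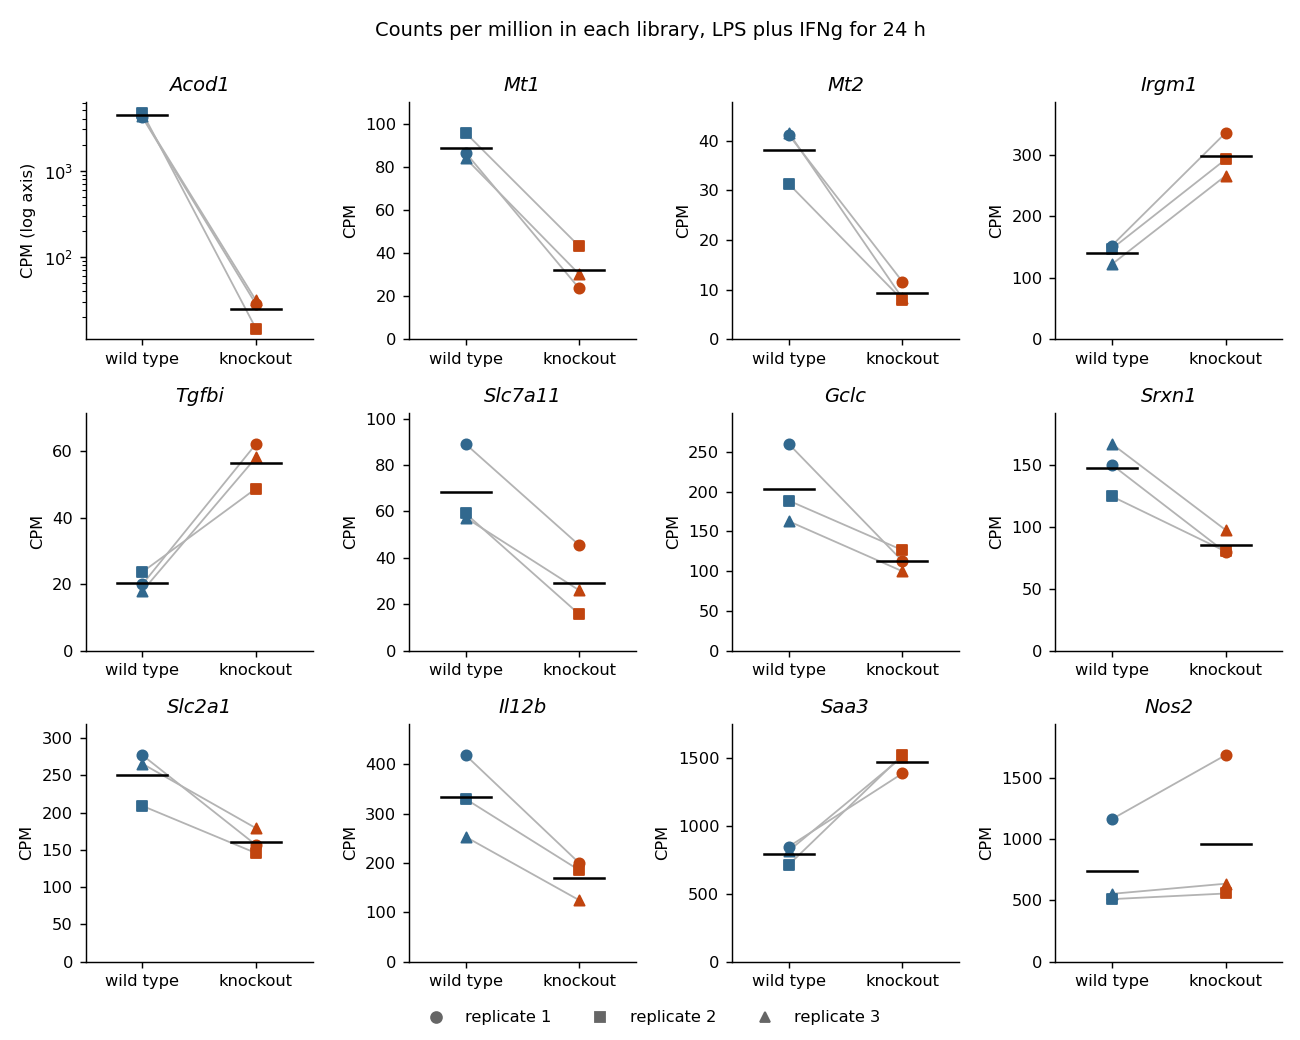
CPM in each of the 6 libraries for 12 genes, with same-numbered libraries joined by grey lines and group means as black bars; Acod1 is on a log axis and the other axes start at 0. The wild type lies above the knockout in 3 of 3 pairs for Acod1, both metallothioneins, Slc7a11, Gclc, Srxn1, Slc2a1 and Il12b, while for Nos2 both libraries numbered 1 lie above all others.

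The tricarboxylic acid cycle itself, from which itaconate is drawn, had few called genes. Of 40 tested genes 2 (5%) were lower with the block by edgeR, against 3.36% of all genes, and 0 were higher. At an unadjusted p under 0.05, 5 were lower and 2 higher, and DESeq2 called 1 lower and limma-voom 2. The 2 edgeR calls were Mpc1, a subunit of the mitochondrial pyruvate carrier (62.2, 43.5 and 69.1 CPM against 105, 68.4 and 104 CPM, log2 -0.67, adjusted p = 0.0004), and the transaminase Got1 (log2 -0.56, adjusted p = 0.0365). Got1 was lost in 4 of the other fits, those without pair 1 or pair 2 included. The succinate dehydrogenase subunits Sdha, Sdhb, Sdhc and Sdhd, parts of the enzyme that itaconate inhibits, had log2 fold changes of -0.05, -0.05, -0.24 and -0.01 with the block, and none was called (adjusted p 0.313 to 0.977). Of 75 tested genes of the respiratory chain and ATP synthase, 4 (5.33%) were lower with the block, against 3.36% of all genes. DESeq2 with the block called 1 lower and limma-voom 5. Without the block 63 of the 75 had a fold change below 0, with a median of -0.16, against a median of 0.01 over all genes. Cox5a, a subunit of cytochrome c oxidase, was the stable one (109, 135 and 164 CPM against 194, 170 and 215 CPM, log2 -0.52, adjusted p = 0.00198). Cholesterol synthesis genes had 0 of 14 tested members called in either direction by edgeR, DESeq2 and limma-voom with the block, and 0 at an unadjusted p under 0.05.

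Among cytokines and chemokines, 11 of 28 tested genes (39.3%) were lower with the block and 1 (3.57%) was higher. Over all genes 3.36% were lower and 2.9% higher. Il12b, the p40 chain of interleukin 12 and interleukin 23, stood at 200, 185 and 125 CPM in the knockout and 419, 330 and 253 CPM in the wild type. Its groups did not overlap, and it was lower in 3 of 3 pairs (log2 -0.97, SE 0.10, edgeR adjusted p = 2.57e-09 with the block, 0.265 without). Ccl5, a chemoattractant of T cells, stood at 3948, 3375 and 5335 CPM against 5955, 5380.1 and 6327 CPM (log2 -0.50, adjusted p = 0.000107), its highest knockout library just below its lowest wild type library. The interleukin 1 receptor antagonist Il1rn stood at 691, 694 and 752 CPM against 1099.6, 923 and 1119.5 CPM, without overlap (log2 -0.55, adjusted p = 4.56e-05).

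Ccl9, Ccl12, Cxcl10 and Cxcl11 were the remaining stable members, with log2 fold changes of -0.73, -0.63, -0.42 and -0.55. Osm, Tnfsf15, Ccl8 and Cxcl9 (log2 -0.80 to -0.31) were called with the block but lost in DESeq2 and without pair 3 (adjusted p = 0.0918 for Cxcl9), and Cxcl9 also without pair 2 (0.317). The counts of the list ranged from 7 to 12 lower over the other fits with the block, and without the block 0 of the 28 were called by edgeR, DESeq2 or limma-voom, with 10 lower and 1 higher at an unadjusted p under 0.05. Il6 had 34, 17.2 and 16.3 CPM in the knockout and 25.9, 13.7 and 17 CPM in the wild type, and the groups overlapped (log2 0.22, SE 0.20, adjusted p = 0.63 with the block). Tnf was not called either (log2 0.28, adjusted p = 0.23), nor was Ccl2 (log2 -0.26, adjusted p = 0.0914).

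The gene called higher among the cytokines was Il1b, with 92.6, 74.8 and 140 CPM in the knockout and 70.1, 57.5 and 77.5 CPM in the wild type. Its groups overlapped at 1 library, and the fold change with the block was 0.56 on the log2 scale (SE 0.13, adjusted p = 0.00346). It was lost without pair 3 (log2 0.40, adjusted p = 0.295). Genes of the inflammasome, which matures interleukin 1 beta, had 5 of 25 tested members (20%) higher with the block, against 2.9% of all genes, and 0 lower by edgeR, DESeq2 and limma-voom, with 3 lower at an unadjusted p under 0.05. These were Il1b, the sensors Nlrp3 (log2 0.53) and Nlrp1b (0.98), the adaptor Pycard (0.54) and Txnip (0.40). None of the 5 was stable: Nlrp3 was lost without pair 2 or pair 3 (adjusted p = 0.0594 and 0.0903), Nlrp1b without pair 1 (0.111), Txnip without pair 2 (0.179), and Pycard without pair 2 or pair 3 (0.316 and 0.0569) and in DESeq2. The median of the list was -0.01, and 2 to 5 members were higher over the other fits.

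IkB-zeta and the genes known to depend on it did not move as one. Nfkbiz had 67.4, 57.1 and 49.2 CPM in the knockout and 53.5, 51.8 and 48.7 CPM in the wild type (log2 0.16, adjusted p = 0.599 with the block). Of 10 tested genes of the list, Saa3 and Lcn2 (20%) were higher with the block and Il12b and Marco (20%) lower. The shares over all genes were 2.9% higher and 3.36% lower. Saa3, an acute phase protein, stood at 1388, 1523 and 1510.1 CPM against 848, 714 and 817 CPM, with no overlap (log2 0.90, SE 0.09, adjusted p = 2.19e-09 with the block, 0.134 without). Lcn2, the siderophore-binding lipocalin, stood at 27.1, 32.9 and 44.2 CPM against 18.9, 16.6 and 25.7 CPM (log2 0.76, adjusted p = 0.00512), and was lost without pair 2 (0.0672) or pair 3 (0.0938).

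Signalling genes upstream and downstream of the Toll-like receptors were called in both directions. Of 29 tested subunits, feedback genes and targets of NF-kB, 2 (6.9%) were higher with the block and 5 (17.2%) lower, with a median log2 fold change of -0.07. Over all genes 2.9% were higher and 3.36% lower. Ptgs2, the inducible cyclooxygenase, stood at 1407, 1550.0 and 926 CPM in the knockout and 2433, 1762 and 1242 CPM in the wild type. Its groups overlapped, but it was lower in 3 of 3 pairs and was the stable gene of this list (log2 -0.47, SE 0.10, edgeR adjusted p = 0.00101 with the block). Irak3, an inhibitor of Toll-like receptor signalling, was higher (log2 0.65, adjusted p = 0.00186), and the phosphatase Dusp1 was lower (log2 -0.49, adjusted p = 0.00122). Both lost their calls without pair 3, with adjusted p of 0.162 and 0.128. Tlr8, an RNA sensor encoded on the X chromosome, stood at 129, 146 and 114 CPM against 86.7, 80.9 and 81.7 CPM (log2 0.63, SE 0.12, adjusted p = 0.000351 with the block). The transcription factor Irf2 stood at 320, 351 and 380 CPM against 227, 243 and 256 CPM (log2 0.53, SE 0.10, adjusted p = 0.000225). Neither overlapped between the groups, and both were stable.

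Interferon-induced genes were split. Of 41 tested genes of the IFNg response 4 (9.76%) were higher with the block and 6 (14.6%) lower, with a median log2 fold change of -0.12. Over all genes 2.9% were higher and 3.36% lower. Irgm1, a GTPase that controls vacuoles holding microbes, stood at 335, 292 and 266 CPM in the knockout and 153, 147 and 122 CPM in the wild type. The groups did not overlap (log2 1.08, SE 0.10, edgeR adjusted p = 4.74e-10 with the block, 0.0591 without). Igtp, a GTPase of the same family, went the other way, with 366, 448 and 482 CPM against 572, 575 and 631 CPM (log2 -0.46, adjusted p = 0.00101), as did the serpin Serpina3g (log2 -0.73, adjusted p = 2.91e-05). Of the 6 lower members 4 were stable (Igtp, Serpina3g, Cxcl10 and Cxcl11), and of the 4 higher members Irgm1 was. Of 45 tested genes of the type I interferon response 7 (15.6%) were lower and Isg15 was higher (lost without pair 3, adjusted p = 0.0552), with Rsad2, the antiviral viperin (log2 -0.49, adjusted p = 3.35e-05), and Oasl1 (log2 -0.56, adjusted p = 0.000164) stable.

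Among genes of MHC class I loading, 3 of 18 tested members (16.7%) were higher with the block, against 2.9% of all genes. They were Tap2, a subunit of the peptide transporter (log2 0.50), H2-Q4 (0.92) and H2-T23 (1.09), of which H2-T23 was stable (39.7, 26.8 and 51.9 CPM against 20.3, 13.4 and 21.7 CPM, adjusted p = 4.1e-05). Class I genes are close copies of each other, so their counts are uncertain. In class II presentation, Ciita, the master activator, was higher (log2 0.58, adjusted p = 0.021), with overlapping groups and no call in DESeq2 or without pair 1 (0.186) or pair 3 (0.12), and Ifi30, a lysosomal thiol reductase, lower (103, 111 and 135 CPM against 196, 192 and 223 CPM, log2 -0.81, adjusted p = 8.8e-07). Nos2, the inducible nitric oxide synthase, stood at 1686, 557 and 637 CPM in the knockout and 1164, 511 and 554 CPM in the wild type. Replicate 1 was high in both groups, and Nos2 was not called with the block (log2 0.29, SE 0.09, adjusted p = 0.0578) or without it (log2 0.37, SE 0.42, adjusted p = 0.956), though it was in 2 of the 7 other fits with the block.

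Of 14 tested genes of the coagulation and fibrinolysis list, 8 (57.1%) were lower with the block, against 3.36% of all genes. By edgeR, DESeq2 and limma-voom 0 were higher, also at an unadjusted p under 0.05. All 14 had a fold change below 0, with a median of -0.48. The list was chosen with earlier results of these data known, and not all of its members act on clotting factors. Procr, which is also counted among the NRF2 targets, Serpinb9b, Serpinb9 and Tgm2, a transglutaminase (log2 -0.55), were among the 5 stable members. Serpinb9b stood at 12.4, 6.9 and 8.66 CPM against 34.6, 23 and 34.1 CPM (log2 -1.73, SE 0.21, adjusted p = 1.71e-07 with the block), and Serpinb9 at 247, 279.7 and 271 CPM against 333, 505 and 428 CPM (log2 -0.65, adjusted p = 1.54e-05). The groups of neither gene overlapped, but they are close copies in one cluster of chromosome 13 and inhibit granzyme-like proteases, not clotting factors. F10, S100a10 and Thbs1 were called with the block but lost without pair 3.

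Of 24 tested genes of alternative activation and scavenger receptors, 12 (50%) were lower with the block and Msr1, a scavenger receptor, was higher (log2 0.37, adjusted p = 0.012), though not without pair 2 (0.113) or pair 3 (0.0619). Spp1, the cytokine osteopontin, stood at 500.1, 477 and 528 CPM in the knockout and 904, 678 and 981 CPM in the wild type (log2 -0.75, SE 0.10, adjusted p = 2.79e-07 with the block). Gpnmb, a lysosomal membrane glycoprotein, stood at 751, 658 and 913 CPM against 1248, 1205 and 1493 CPM (log2 -0.77, SE 0.09, adjusted p = 4.11e-08). Neither gene overlapped between the groups. Apoe (log2 -0.52), Lgals3 (-0.53), Lpl (-0.40) and the transcription factor Klf4 (-0.42) were also stable, whereas Cd5l, Folr2, Fabp4, Cd36, Marco and Arg1 (-0.89 to -0.43) were lost in 1 or more of the other fits. Arg1, the arginase, had 41.1, 52.8 and 32.2 CPM against 58.5, 86 and 36.5 CPM, with overlap (log2 -0.47, adjusted p = 0.0442). Macrophage markers themselves changed in both directions: with the block 6 of 21 tested (28.6%) were lower, among them Lyz2 (log2 -0.51) and Cd63 (-0.49), and 4 (19%) were higher, among them Itgam (0.57) and Aif1 (0.71). Over all genes 3.36% were lower and 2.9% higher. Whether a shift in the state or mixture of the macrophages takes part in the changes above was not tested.

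**Figure D4:**
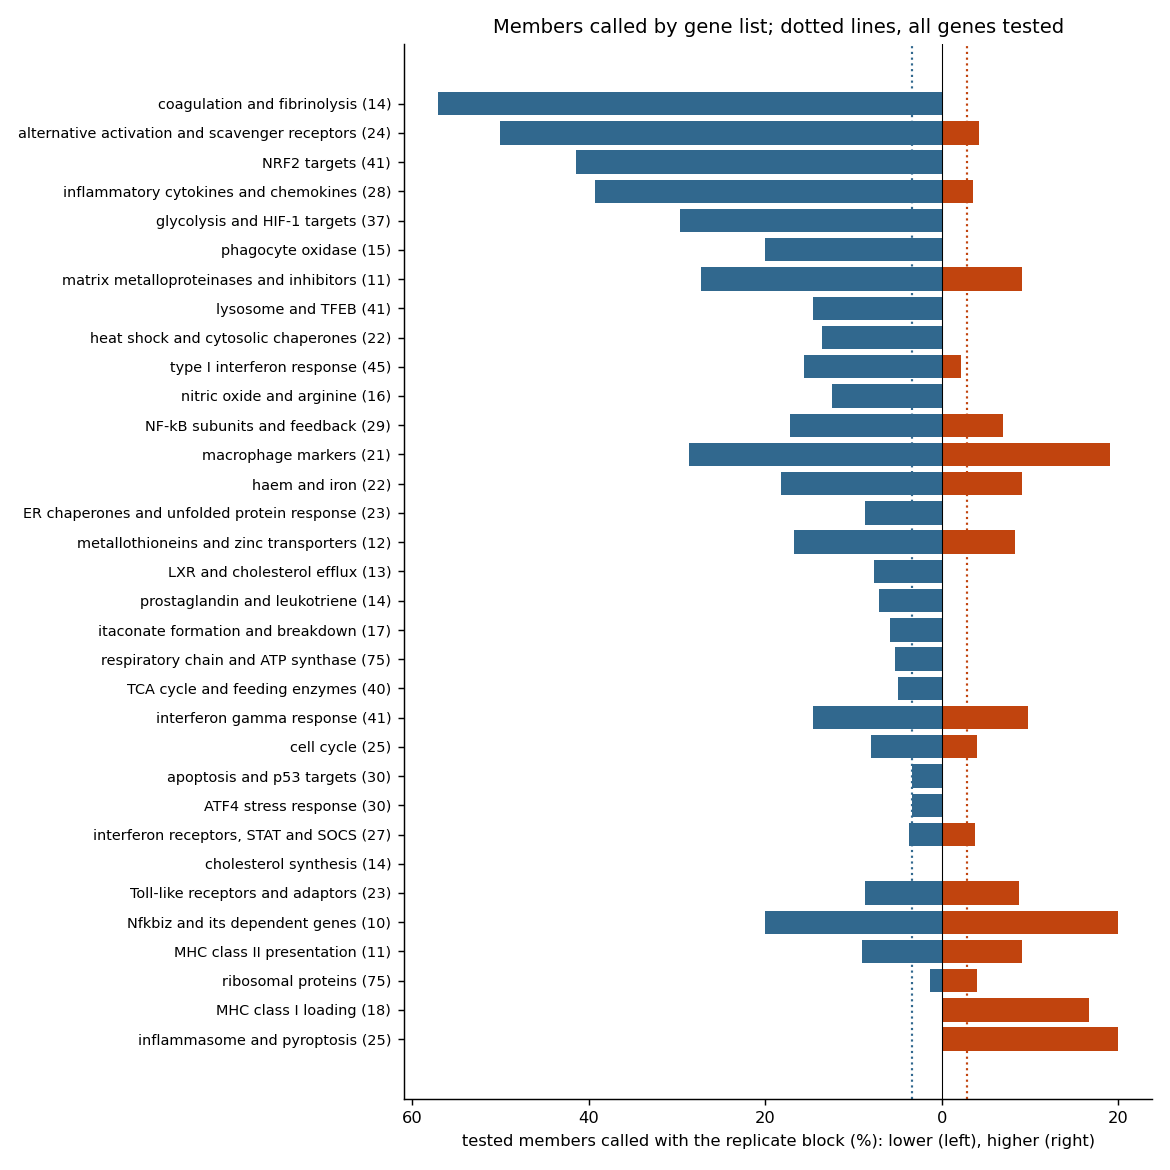
Percent of the tested members of each gene list that were lower (blue, to the left) or higher (red, to the right) in the knockout, in the fit with the replicate block; the number tested is in parentheses. Dotted lines mark 3.36% lower and 2.9% higher among all genes, and the longest bars are coagulation (57.1%), alternative activation (50%), NRF2 targets (41.5%) and cytokines (39.3%), all to the left. The lists were chosen with earlier results of these data known, and some genes, such as Procr, are shared between lists.

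Matrix-degrading enzymes were also split. Mmp14, a membrane-bound collagenase, stood at 94.3, 305 and 193 CPM in the knockout and 47.5, 130 and 90.1 CPM in the wild type. The groups overlapped because both libraries numbered 1 were low, but Mmp14 was higher in 3 of 3 pairs (log2 1.12, SE 0.11, edgeR adjusted p = 1.86e-09 with the block, 0.571 without). Mmp12, the macrophage elastase, stood at 64.7, 63.7 and 47.1 CPM against 110, 113 and 113 CPM (log2 -0.96, adjusted p = 8.84e-07), and Mmp13, a collagenase, at 40.3, 65.5 and 34.1 CPM against 92, 134 and 83.9 CPM (log2 -1.17, adjusted p = 1.34e-08). Neither overlapped. Of lysosomal genes 6 of 41 tested (14.6%) were lower, against 3.36% of all genes. They were led by Sqstm1 and the protease Ctsd (1057, 1214 and 1125 CPM against 1559.8, 1472 and 1591 CPM, log2 -0.45, adjusted p = 0.000825). Among iron genes, Tfrc, the transferrin receptor, was higher (29.6, 29.2 and 19.9 CPM against 15.3, 13.1 and 14.4 CPM, log2 0.84, adjusted p = 0.0067) while both ferritin chains were lower, and Tfrc was lost in DESeq2 and without pair 2 (adjusted p = 0.106).

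The inducible heat shock genes Hspa1a and Hspa1b, which encode nearly identical HSP70 chaperones, were lower. Hspa1b stood at 34.8, 24.7 and 43.8 CPM in the knockout and 86.4, 65.8 and 91 CPM in the wild type (log2 -1.24, SE 0.14, adjusted p = 2.53e-08 with the block, 0.14 without). Hspa1a stood at 27.1, 40.6 and 27.7 CPM against 64.1, 61.7 and 64.8 CPM (log2 -1.03, SE 0.15, adjusted p = 9.49e-06 with the block, 0.178 without). Neither gene overlapped between the groups. Reads of such copies can be split or lost in counting, so the 2 values are not independent. Of the 20 other tested chaperone genes, Hspa4l was called (log2 -0.45, adjusted p = 0.00211), and it was lost without pair 2 or pair 3.
Hspa1b: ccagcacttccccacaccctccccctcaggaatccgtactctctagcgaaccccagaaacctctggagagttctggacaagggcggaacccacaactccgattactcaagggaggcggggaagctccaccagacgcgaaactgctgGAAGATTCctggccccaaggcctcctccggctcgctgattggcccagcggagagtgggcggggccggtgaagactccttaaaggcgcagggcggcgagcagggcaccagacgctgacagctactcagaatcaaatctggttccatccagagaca
This RefSeq window of GRCm38.p6, chr17:34959189-34959488 (-), is shown for both genes, since the Hspa1a window has the same base at 296 of its 300 positions. Capitals mark GAANNTTC or TTCNNGAA, the core of the heat shock element, on either strand. Each of the 2 patterns is its own reverse complement, and 15.1% of all windows and 13.9% of the tested genes with one held a match.

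Some genes on chromosome 14 beside Acod1 were lower too. Kctd12, whose start lies at -70431 bases from that of Acod1 and which encodes a subunit of GABA-B receptor complexes, stood at 109, 96.3 and 106 CPM in the knockout and 205, 203 and 251 CPM in the wild type. Its groups did not overlap (log2 -1.08, SE 0.11, edgeR adjusted p = 1.86e-09 with the block, 0.0588 without). Ednrb, the endothelin receptor B, was lower by less (log2 -0.58, adjusted p = 0.0328 with the block) and was lost without pair 2 or pair 3 (0.103 and 0.408). Mycbp2, a ubiquitin ligase, was not called (log2 0.21, adjusted p = 0.284). The labels do not say how the allele was made or which flanking sequence came with it, and the part of either in these values was not tested. Of 4 tested genes known to differ between C57BL/6 substrains, Nnt among them, 0 were called by edgeR, DESeq2 or limma-voom with the block, with 1 at an unadjusted p under 0.05.

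A run of neighbours on another chromosome was noticed after the values were seen. At the start of the annotated part of chromosome 11 (chr11:3131850-3342971, mm10), the 5 consecutive tested genes Sfi1, Eif4enif1, Drg1, Patz1 and Pik3ip1 were all higher with the block, and 17 genes of this 1 Mb were tested in all. Eif4enif1, a transporter of the cap-binding protein, stood at 167, 145 and 156 CPM in the knockout and 73.8, 65.2 and 78.8 CPM in the wild type (log2 1.10, SE 0.12, edgeR adjusted p = 4.12e-09 with the block, 0.0535 without). Sfi1, a centrin-binding protein, stood at 33.4, 42.7 and 40.7 CPM against 13.3, 13.7 and 20.6 CPM (log2 1.28, adjusted p = 5.11e-06). Neither overlapped, and Drg1, Patz1 and Pik3ip1 had log2 fold changes of 1.30, 1.16 and 1.51. Pik3ip1 was lost without pair 2 (adjusted p = 0.0692). The annotated spans of Sfi1 and Eif4enif1 overlap at one end, so some reads could belong to either.

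**Figure D5:**
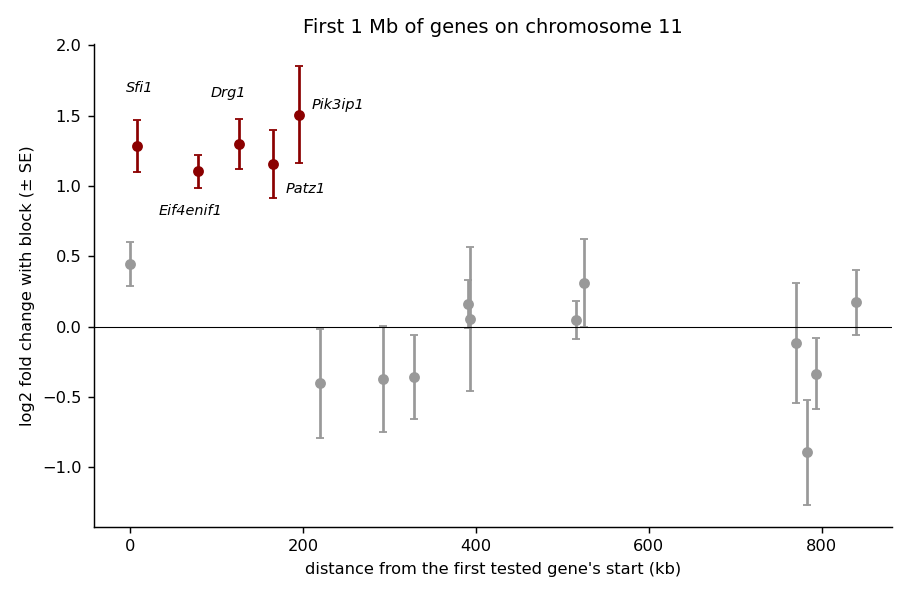
Log2 fold change with the replicate block (points, with SE as bars) of the 17 tested genes in the first 1 Mb of genes on chromosome 11, by distance of their start from that of the first tested gene in kb. Dark red genes were called: 5 consecutive genes lie above 1, and the other tested genes (grey) were not called.

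Of the genes called with the block alone, those with the largest fold changes were mostly weakly expressed. Among higher genes Fgf22, a fibroblast growth factor, stood out by its level, with 13.9, 28.1 and 14.2 CPM in the knockout and 2.33, 4.48 and 1.99 CPM in the wild type (log2 2.68, SE 0.31, edgeR adjusted p = 4.19e-08 with the block, 0.0513 without). Its groups did not overlap. Cyp4f18, Mterf1a and Rcl1 followed (log2 2.64, 2.40 and 2.10) at 5.76 CPM or less in the mean of either group, and Cyp4f18 was lost without pair 3 (adjusted p = 0.0741) and Rcl1 without pair 2 (0.177). Their wild type counts were 1, 2 and 5 for Cyp4f18, 2, 3 and 7 for Mterf1a, and 3, 3 and 6 for Rcl1. These lie near the limit of 3 counts, so the sizes of these fold changes cannot be read. Cep68, Klhl42, Lmtk2, Mettl26 and Plxdc1 came next at 1.51 to 1.85, and each of these 5 lost its call in 2 or more of the other fits. Among lower genes Tmem267 (log2 -1.92), the amine oxidase Maoa (-1.77), the semaphorin Sema3c (-1.64) and the cell cycle inhibitor Cdkn1c (-1.53) had some of the most negative fold changes. Of these 4, Maoa alone was lost in another fit, that without pair 3 (adjusted p = 0.338). Fam71f2, Atp2b4 and Igf2bp3 were called too (log2 -2.35, -1.89 and -1.47) at 8.53 CPM or less in the mean of either group, and all 3 were lost without pair 2 or pair 3. Knockout counts were 7, 0 and 3 for Fam71f2 and 4, 3 and 8 for Atp2b4, also near the limit of 3 counts. Cenpa, a centromeric histone, stood at 13.4, 10.3 and 12.3 CPM against 28.2, 30 and 40.7 CPM (log2 -1.45, SE 0.20, adjusted p = 1.75e-06 with the block).

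The dimethyl itaconate experiment added an ester of itaconate to the same cell type, whereas the knockout lacks the gene for making itaconate. Whether the compound acts as the reverse of the knockout was not tested. Times and stimuli differed too: wild type macrophages were held in 0.25 mM compound for 12 h and then LPS for 4 h, against LPS alone, without IFNg. By edgeR, the compound raised 862 of 10285 tested genes (8.38%) and lowered 774 (7.53%). Of the 308 genes lower in the knockout with the block and tested in both tables, 70 (22.7%) were higher with the compound and 42 (13.6%) lower. Of the 274 genes higher in the knockout, 11 (4.01%) were higher with the compound and 61 (22.3%) lower. Seen from the other list, 8.85% of the 791 compound-higher genes tested in both were lower in the knockout and 1.39% higher, and 8.6% of the 709 compound-lower genes were higher in the knockout and 5.92% lower. Without the LPS library numbered 3, the knockout-lower genes were compound-higher in 73 cases and compound-lower in 47.

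The called members of the NRF2 list went in opposite directions in the 2 experiments. The list was chosen with earlier results of these data known, so this contrast adds no independent support. With the compound 27 of its 41 tested members were higher by edgeR, against 8.38% of all genes. Of the 17 members lower in the knockout, 12 were among the 27, against 22.7% of all knockout-lower genes. Gclc was 12.8 CPM in the mean with LPS and 1572 CPM with compound and LPS (log2 6.75, SE 0.57, edgeR adjusted p = 1.09e-06), while its difference in the knockout was -0.83. Hmox1 was higher with the compound (log2 2.96, adjusted p = 5.08e-05) but not called in the knockout. Of the cytokine list, 18 of 28 members were lower with the compound and 1 higher, against 7.53% and 8.38% of all genes. Of the 11 members lower in the knockout 6 were lower with the compound and 5 were not called. Of all knockout-lower genes 13.6% were lower with the compound. Il12b was lower in both, with log2 fold changes of -4.80 with the compound and -0.97 in the knockout. Il1b and Saa3 were lower with the compound (log2 -2.94 and -2.72) and higher in the knockout. Mt1 and Mt2 were not called with the compound (log2 0.06 and -0.37, adjusted p = 0.919 and 0.449).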

How the data were processed

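Gene counts were analysed as deposited: per the labels' protocols, libraries were made from oligo-dT-selected RNA with barcoded oligo-dT primers, pooled and amplified without stated molecular identifiers, so counts are not all independent molecules. The submitters' processing notes name STAR, HTSeq, DESeq2 and mm10, without roles or versions, and whether counting used strand is not given in the sources used here. Entrez IDs were matched to RefSeq symbols and coordinates of GRCm38.p6 (23969 of 24052); the 83 unmatched IDs hold 0.256 to 2.14% of a library's counts. From these, edgeR 4.0.16 (R 4.3.3) was run with TMM scaling, filterByExpr (minimum count 10), a prior count of 0.125 and quasi-likelihood tests, two-sided, with Benjamini-Hochberg adjustment over the 9491 genes tested, called at an adjusted p under 0.05. The main fit has genotype alone and 4 residual degrees of freedom; the paired fit adds the replicate number as a block. The numbers were taken to pair libraries by a rule decided before calls were compared, since the labels do not state a pairing. All 3 same-numbered correlations over genes of deviations from the group means had to exceed 0.1, and were 0.374, 0.354 and 0.455. Those of different number were -0.263 to -0.144. Deviations within a group sum to 0, so positive same-numbered values push the others below 0, and this contrast adds no support. DESeq2 1.42.0, limma 3.58.1 (voom), DESeq2's size factors, no filter and leaving out libraries or pairs were the alternatives. The fits with the block under other settings were added after seeing the data. Replicates differed beyond sampling noise (chi-square per degree of freedom 14.8 to 30.7). The scripts were tested on simulated data. Libraries of the compound experiment were fitted in their own table with all 4 groups.

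The members, gene lists, motifs and tests were chosen with earlier results of these data known. Named genes were Acod1, the 15 largest fold changes in each direction among calls without the block and the 10 among calls with the block alone, all moving one way in 3 pairs, up to 6 members of each list by p, and further list members named for their role. The limit of 3 counts covers counting error only, while the SEs also include the estimated spread between libraries. Results of some genes are not reported here.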

Additional observations from a re-analysis of the deposited data

How the results depend on the processing

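Without the block, 1 gene was higher and 5 lower; with the replicate block these paired counts were 275 and 319, with no filter on low counts 15 and 25, and with DESeq2 13 and 23. DESeq2's size factors gave 1 and 5, limma-voom 1 and 6, and leaving out 1 library 0 to 1 higher and 3 to 5 lower. The 6 calls were kept in each of these fits that used all libraries. With the block, DESeq2 called 116 higher and 150 lower, all among the 594 calls, from 5443 genes with an adjusted p. Leaving out pair 1, 2 or 3 gave 306, 182 and 149 higher and 325, 230 and 142 lower, sharing 434, 345 and 269 of the 594 calls. No call turned direction in the 7 other fits with the block. Log2 fold changes of genes that were not called without the block crossed 0 on leaving out 1 library: Txnrd1 -0.44 to 0.041, Hif1a -0.15 to 0.26, Il6 -0.16 to 0.54, Nos2 -0.31 to 0.85, Ccne1 -1.23 to 0.0053, Sdha -0.18 to 0.051, Sdhb -0.46 to 0.27 and Sdhd -0.15 to 0.10. Of these, Ccne1 was nevertheless a stable call with the block, where it was lower (edgeR adjusted p = 0.00173). With the block and without pair 1, Sdha was 0.016, Sdhb 0.12 and Sdhd 0.20, and Sdhd was 0.0023 in limma-voom. The cause was not tested. Genes near the limit of 3 counts (0.546 to 0.971 CPM) cannot be read.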
